A study of Mus musculus with 6 samples.

Results

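The genes of the proteasome, the barrel-shaped protease that degrades ubiquitin-tagged proteins, were followed in macrophages grown from mouse bone marrow, whose RNA was read on 6 arrays. All genes whose array name begins with Psm, one of the letters a to g and a number were taken, which gave 49 genes with 62 probes out of 34755 genes with 55627 probes. Of these, 19 encode subunits of the 20S core (Psma and Psmb) and 21 encode subunits of the regulatory particles (Psmc, most Psmd, and Psme). The other 9 belong to neither class: the assembly factors Psmd5, Psmd9 and Psmd10, the assembly chaperones Psmg1 to Psmg4, the inhibitor Psmf1, and Psmc3ip, which carries the name pattern but encodes no proteasome subunit. Core and regulatory genes were compared on this division.

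The macrophages were cultured for 7 days in medium with L929-conditioned supernatant from bone marrow of mice aged 6 to 8 weeks. All mice carried LysM-Cre, which is active in myeloid cells, and were Apoe–/–, and they had either Dicer wt/wt alleles (WT) or Dicer flox/flox alleles (KO); Dicer makes mature miRNAs. From each genotype, RNA came from the cleared lysate (input), from a precipitate with a mouse monoclonal antibody to AGO2, the Argonaute protein that holds miRNAs on their targets (AGO2-RIP), or from a precipitate with control IgG (IgG-RIP). There was 1 array per group, so that a difference between groups has no replicate check and stands for these libraries only.

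Values are log2 of the background-subtracted signal minus the array's 75th percentile, so a level says how far a probe lay above or below that percentile on its own array, and levels are not compared between genes because probes differ in brightness. The spread between repeated spots gave an SD of 0.25 to 0.29 log2 for a difference between 2 arrays (0.41 for the WT minus KO difference), which leaves out all variation between cultures and precipitations. Between 37.6% and 46.3% of spots lay well above background. Of 8 macrophage markers, 7 were above background on all 6 arrays. Lyz2, the locus that holds LysM-Cre, was above it on 3 KO arrays and 1 WT array. Its level was 5.67 in the KO input and -2.19 in the WT input, where it was not well above background. Of the T cell, B cell, neutrophil, erythroid and fibroblast markers (4 genes each), 1 was above background on all 6 arrays, the erythroid Hba-a1, at levels of -0.85 to 0.11. Cd3e and Pax5 were above it on 5 arrays, Lck and Col1a2 on 4, and the other 15 on none. The part of these cells in the results was not tested. Dicer1 had levels of 0.22, 0.93 and 0.18 in the WT input, AGO2-RIP and IgG-RIP and of -0.55, 0.94 and -2.24 in KO, where IgG-RIP was not well above background. It was thus 0.77 log2 lower in the KO input but not lower in KO AGO2-RIP, and no source used here says whether its probe lies in the deleted part. The labels call all mice male, but Xist was above background on the 3 WT arrays and on 0 KO arrays, and Ddx3y and Eif2s3y on the 3 KO arrays and on 0 WT arrays. The genotypes thus also differ in these sex-linked transcripts, in Lyz2 signal and in slide row, and none of these can be told apart from genotype.

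The 20S core is a stack of rings. The outer rings consist of alpha subunits, which gate the entrance, and the inner rings of beta subunits, of which Psmb6, Psmb7 and Psmb5 carry the caspase-like, trypsin-like and chymotrypsin-like active sites. In immune cells and under interferon, Psmb9, Psmb10 and Psmb8 replace them and form the immunoproteasome, which favours peptides that fit MHC class I. The 19S regulatory particle has a base, with the ATPases (Psmc) that unfold substrates, and a lid that removes ubiquitin, while the Psme proteins form ring-shaped activators that open the core without ATP.

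The probes behind the values are 60 bases long. Those printed here cross an exon junction in coding genes whose values the results turn on, so their positions on the mm9 build, as the array files give them, span an intron. Bases in capitals are cut sites of Alu I (AGCT) or Rsa I (GTAC), the enzymes used on the cDNA before labelling, and a probe all in lower case holds neither.
Psma4 (chr9:54804685-54805444, plus strand): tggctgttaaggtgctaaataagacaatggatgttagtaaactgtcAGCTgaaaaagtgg
Psmb1 (chr17:15630098-15631393, minus strand): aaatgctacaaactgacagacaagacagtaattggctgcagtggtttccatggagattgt
Psmb2 (chr4:126361456-126364299, plus strand): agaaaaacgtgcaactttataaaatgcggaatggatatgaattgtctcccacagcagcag
Psmb7 (chr2:38468966-38489385, minus strand): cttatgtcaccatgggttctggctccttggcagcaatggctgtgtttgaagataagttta
Psmc4 (chr7:28827132-28827373, minus strand): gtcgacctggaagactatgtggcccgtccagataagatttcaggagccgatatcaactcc
Psmd8 (chr7:29961170-29962121, minus strand): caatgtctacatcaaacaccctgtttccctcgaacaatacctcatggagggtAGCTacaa
Psmd10 (chrX:137483840-137486736, minus strand): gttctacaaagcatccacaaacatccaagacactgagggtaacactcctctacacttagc
Psma4 and Psmd8 hold an Alu I site and the other 5 printed probes hold none. Over all members, 19 of 49 probes (38.8%) held such a site, against 33.7% of all genes. The median GC content was 41.67% for core and 43.33% for regulatory probes, and 43.33% for all genes.

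Of the 49 members, 43 were above background on all 6 arrays. Psma8, an alpha subunit known from testis, and Psmb11, the catalytic subunit of the thymus proteasome, were not well above background on any array. Psmf1 was dim on 3 arrays, Psmg2 and Psmc3ip on 2, and Psmg3 on the WT IgG-RIP array.

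The input arrays asked whether loss of Dicer was accompanied by a different level of proteasome transcripts. The 47 measured members (above background on both arrays) differed little: their median KO minus WT difference was -0.01 log2, against -0.08 for all genes, and their range was -1.004 to 0.52. No member (0 of 47) was at least 2-fold higher, a size that 1.02% of all measured genes reached, and 1 (Psmg4) was at least 2-fold lower, against 1.73% of all genes. Under 3 other scalings or background corrections Psmg4 did not reach 2-fold. The alpha ring had a median of -0.06 over 7 genes, the constitutive beta ring 0.02 over 7, the ATPases 0.05 over 6 and the lid 0.03 over 8. The sign of such small medians depends on the scaling: that of the alpha ring was 0.14 with quantile normalization.

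Among the roles with more than 1 gene, the lowest median (-0.44) was that of the Psmg genes, which encode the chaperones (PAC1 to PAC4) that build the alpha ring. Psmg4 had a level of 3.86 in the WT input and 2.85 in the KO input. The other chaperones were lower in the KO input by smaller amounts, with differences of -0.48 for Psmg3, -0.40 for Psmg2 and -0.27 for Psmg1. All 4 were thus below the median of all genes, and all 4 stayed below 0 under the other 3 scalings or background corrections. Most genes also lay below 0 in this comparison, with 41.9% of all measured genes above it. The value of Psmg1 was close to the spot noise of 0.25. Of the regulatory genes, Psmd11 (lid scaffold) had a difference of 0.52 and Psmd8 (lid) of -0.57. In the beta ring, Psmb1 was 0.40 higher and Psmb6 differed by -0.41, and in the immunoproteasome Psmb9 was 0.40 and Psmb8 0.27 higher, while Psmb10 differed by -0.03. Apart from Psmg4, all these differences were below 2-fold, and no test can be made with 1 array a group. Fewer cells of a type and less RNA per cell cannot be told apart in such bulk RNA.

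**Figure D1:**
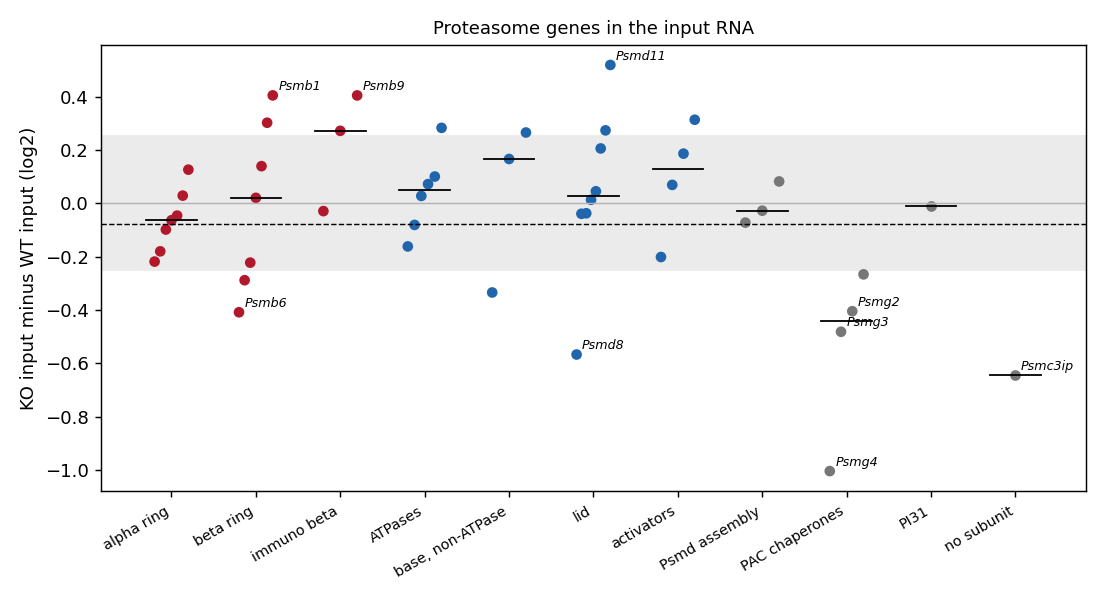
KO input minus WT input (log2, y axis) for the 47 measured members, by role (x axis). Red points are core, blue regulatory and grey neither; black bars are medians, the dashed line is the median of all genes (-0.08) and the grey band is 1 SD of spot noise (0.25). The 4 PAC chaperones lie below the band or at its lower edge, with Psmg4 lowest at -1.004.

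AGO2-RIP against IgG-RIP in the same genotype asks which transcripts the AGO2 antibody brought down beyond the control. In WT, the 44 measured members had a median of 0.39 log2, against -0.24 for all genes. In AGO2-RIP, 13 of them exceeded IgG-RIP by 2-fold or more and 2 lay below it by as much, while 20.3% of all genes were that much higher and 22.2% that much lower. Quantile normalization gave 8 higher and 5 lower (18.6% and 25.97% of all genes). In KO, the median over 44 members was -0.10, against -0.19 for all genes. There 4 members were at least 2-fold higher (10.5% of all genes) and 3 at least 2-fold lower (9.92% of all genes); normexp background correction gave 4 and 1 (6.37% and 3.07% of all genes).

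The subunit classes parted in WT. The 17 measured core genes had a median of 0.88 log2, and 16 of them lay above IgG-RIP (13 with quantile normalization), where 43.2% of all genes did. Of the core genes, 7 passed 2-fold upward and 0 passed it downward (20.3% and 22.2% of all genes). The 21 regulatory genes had a median of -0.04, of which 4 passed 2-fold upward and 1 downward. The core median thus lay 0.92 log2 above the regulatory median, and 16 of the 17 core genes lay above that regulatory median. Classes taken from the name prefixes alone gave the same gap. In KO the medians were -0.10 for core and -0.14 for regulatory genes, a gap of 0.04. Other scalings shift all genes by up to 0.30 log2 in the WT comparison, and the core minus regulatory gap in WT stayed between 0.73 and 1.25 under all alternatives tried. The medians of the classes are a description, and their difference was not tested.

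In the alpha ring all 7 measured genes were higher in WT AGO2-RIP than in IgG-RIP (43.2% of all genes), with a median of 1.08. With quantile normalization 6 of 7 were, with a median of 0.69. Psma5 had levels of 3.93 in the WT input, 3.72 in WT AGO2-RIP and 1.69 in WT IgG-RIP, and of 3.96, 3.06 and 2.63 on the same KO arrays. Its WT IgG-RIP value was the lowest of the 6, and AGO2-RIP exceeded IgG-RIP by 2.02 log2 (4.06-fold) in WT and by 0.43 in KO. Psma4 (1.32 in WT, 0.75 in KO), Psma7 (1.15, -0.11), Psma3 (1.08, -0.07) and Psma6 (0.99, 0.12) followed, and Psma2 (0.48, -0.31) and Psma1 (0.17, -0.15) differed least in WT. A second Psma4 probe gave -0.11 in WT and 0.55 in KO, so the value for this gene depends on the probe.

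In the beta ring the WT median was 0.86 over 7 genes, and 0.75 with quantile normalization. Psmb2, a non-catalytic subunit, had the highest WT difference of the 44 members above background on both arrays. Its levels were 5.86, 7.12 and 4.90 in the WT input, AGO2-RIP and IgG-RIP, and 5.63, 5.63 and 4.21 on the KO arrays. In WT its AGO2-RIP level was above the input, and IgG-RIP was the lowest array in both genotypes. AGO2-RIP exceeded IgG-RIP by 2.22 log2 (4.65-fold) in WT and by 1.41 (2.67-fold) in KO. Psmb4, which closes the beta ring during assembly, showed 1.60 in WT and 0.20 in KO, and Psmb1 0.86 in WT and -0.90 in KO.

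The catalytic subunits did not move as one. Psmb7 had levels of 5.36, 2.65 and 1.63 in the WT input, AGO2-RIP and IgG-RIP and of 5.66, 4.35 and 3.40 in KO, so AGO2-RIP lay above IgG-RIP by 1.02 in WT and 0.95 in KO. Psmb5 (0.32 in WT, -0.64 in KO) and Psmb6 (-0.09, -0.10) were closer to IgG-RIP. A second Psmb5 probe gave 1.499 in WT and 0.38 in KO, so the place of Psmb5 beside Psmb7 and its direction in KO depend on the probe. Of the immunoproteasome subunits, Psmb8 had 0.68 in WT and -0.23 in KO, and Psmb10 0.88 and 0.23. Psmb9 had levels of 3.96, 2.92 and 2.54 in the WT input, AGO2-RIP and IgG-RIP and of 4.36, 2.46 and 3.79 in KO. For Psmb9, IgG-RIP minus input was -1.42 in WT and -0.57 in KO, and AGO2-RIP minus IgG-RIP was 0.38 in WT and -1.33 in KO.

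**Figure D2:**
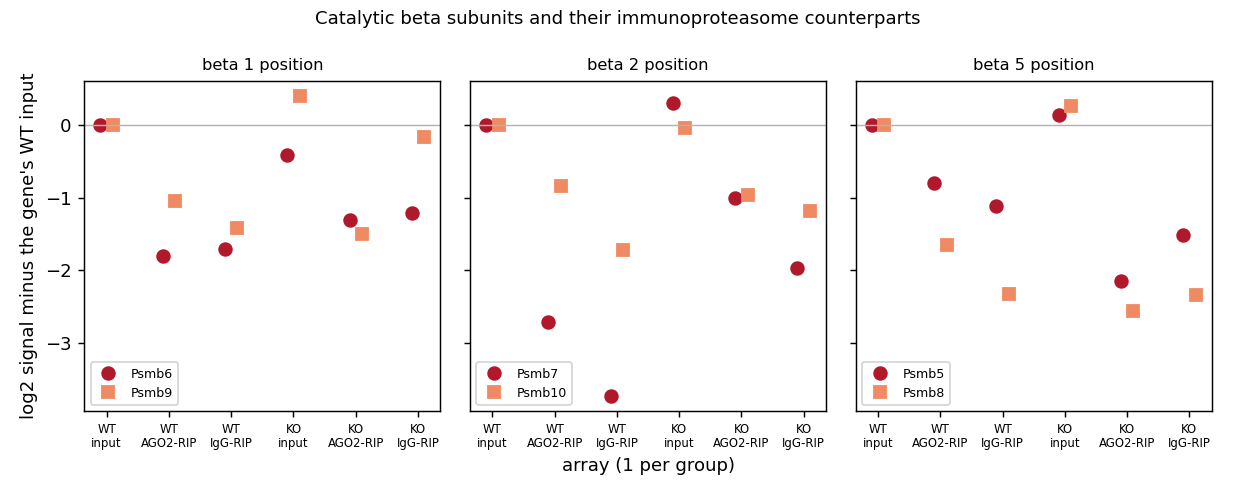
Level of each catalytic beta subunit (circles) and of its immunoproteasome counterpart (squares) on each array, as log2 signal minus the gene's own WT input (y axis), with 1 array per group (x axis). Psmb7 lies lowest on the WT IgG-RIP array, 3.73 log2 below its WT input. Among the precipitates, Psmb9 lies nearest to its WT input on the KO IgG-RIP array.

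In the regulatory particle, the medians of lid and base differed in WT, but their genes overlapped. The 8 lid genes had a median of 0.68 and a range of -0.99 to 1.35. The 9 base genes (ATPases and Psmd1, Psmd2 and Psmd4) had a median of -0.51 and a range of -0.80 to 1.32. Above 0 were 5 of 8 lid and 4 of 9 base genes, against 43.2% of all genes, and the difference was not tested. Within the base, the 6 ATPases had a median of 0.23, with 4 of 6 above 0 (43.2% of all genes), and the 3 non-ATPase genes a median of -0.53. Psmd8 had levels of 3.75, 2.37 and 1.03 in the WT input, AGO2-RIP and IgG-RIP and of 3.18, 1.92 and 1.97 in KO. WT IgG-RIP was again the lowest array, and the AGO2-RIP minus IgG-RIP difference was 1.35 in WT and -0.06 in KO. Psmd12 (1.20 in WT, -0.08 in KO) and Psmd11 (1.04, 0.58) were also past 2-fold in WT, while Psmd13 (-0.99, -0.75) and Psmd14, the lid deubiquitinase (-0.66, 0.15), lay below IgG-RIP in WT.

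The non-ATPase base subunits, Psmd1 and Psmd2 as scaffolds and Psmd4 as a ubiquitin receptor, lay below IgG-RIP in both genotypes, as did 42.7% of 14054 genes. Their AGO2-RIP minus IgG-RIP differences were -0.53, -0.51 and -0.80 in WT and -0.47, -0.36 and -0.09 in KO. The KO value of Psmd4 was within the spot noise of 0.29, and normexp background correction left 1 of the 3 above 0 in KO. Among the ATPases, Psmc1 was highest in WT (1.32; KO 0.73) and Psmc3 lowest (-0.68; KO -0.56). Psmc4 stood apart in KO: its levels were 4.04, 2.79 and 2.64 in the WT input, AGO2-RIP and IgG-RIP and 3.88, 3.04 and 1.77 in KO, which gave 0.15 in WT and 1.28 in KO. Array median scaling turned the regulatory median in WT to 0.26, and quantile normalization gave -0.46, so a sign near 0 is not settled for this class.

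The activators were mostly not above IgG-RIP. Psme3 (PA28 gamma, the nuclear activator) had levels of 7.06, 7.28 and 8.34 in the WT input, AGO2-RIP and IgG-RIP and of 7.13, 7.63 and 7.86 in KO. IgG-RIP was its highest array in both genotypes, and AGO2-RIP minus IgG-RIP was -1.06 in WT and -0.23 in KO. Psme1 (PA28 alpha) was printed 10 times on each array, of which 8 spots were kept on KO IgG-RIP after outlier spots were left out. The SD between kept spots was 0.03 to 0.07. Psme1 had levels of 2.89 and 2.94 in WT AGO2-RIP and IgG-RIP and of 3.30 and 4.44 in KO. Its difference was -0.04 in WT and -1.14 in KO. Psme4 (PA200) had -0.52 and -0.33, and its second probe -0.88 and 0.16, so its direction in KO depends on the probe. The probes under the name Psme2b, which is near-identical to Psme2, disagreed: in WT the lower probes in signal gave 0.77 and -1.14 and the brightest lay between them, so no direction is given for it.

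The assembly factors lay at both ends. Psmd9 had levels of 1.77, -1.41 and 0.58 in the WT input, AGO2-RIP and IgG-RIP and of 1.74, -1.03 and -0.10 in KO. AGO2-RIP was its lowest array in each genotype, by -1.99 against IgG-RIP in WT (3.97-fold) and -0.93 in KO. A second Psmd9 probe gave -0.34 in WT and -1.99 in KO, the same direction with the larger difference in KO. Psmd10 (gankyrin) had -0.99 and -0.37, and Psmd5 0.40 in WT and -1.45 in KO. The chaperones Psmg1 and Psmg4 were higher in AGO2-RIP in both genotypes: Psmg1 by 1.35 in WT and 1.68 in KO, and Psmg4 by 1.29 and 1.71. Both had their lowest level on the KO IgG-RIP array, -1.42 for Psmg1 and -0.56 for Psmg4. Psmg3 was dim in WT IgG-RIP, where AGO2-RIP was at least 5.66-fold higher, counted against the higher of the probe's own signal and the dimmest signal above background on that array, and differed by 0.48 in KO. Psmg2, dim on both IgG-RIP arrays, was at least 1.68-fold higher in WT and at least 1.75-fold higher in KO. Psmf1 (PI31), dim on both WT precipitates and on KO IgG-RIP, was at least 2.65-fold higher in KO AGO2-RIP than in KO IgG-RIP, with a KO AGO2-RIP level of -0.80 beside inputs of -0.52 and -0.53.

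The WT and KO differences come from separate arrays. Across the 43 members measured in both they had a Pearson r of 0.52 and a Spearman rho of 0.58, against 0.45 and 0.40 across 14054 genes, as a description, since genes are not independent replicates and the differences carry each array's own bias. Of these members, 13 were higher in AGO2-RIP in both genotypes, 13 lower in both, 15 higher in WT and lower in KO, and 2 lower in WT and higher in KO. The shares of all 14054 genes in these combinations were 26.5%, 42.7%, 17.4% and 13.4%, against 30.2%, 30.2%, 34.9% and 4.65% of the members.

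**Figure D3:**
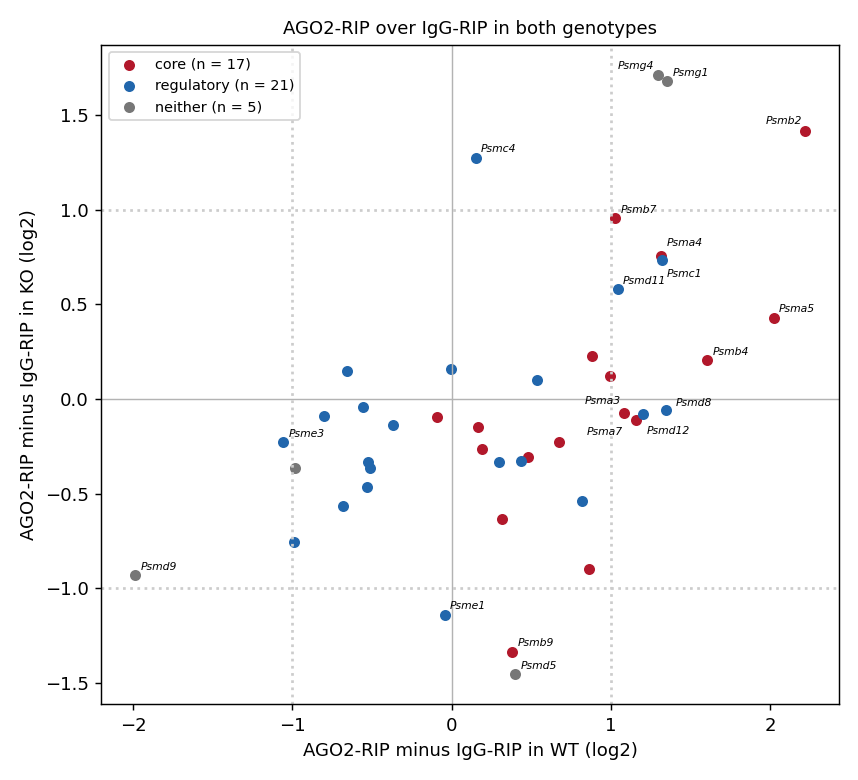
AGO2-RIP minus IgG-RIP (log2) in WT (x axis) and in KO (y axis) for the 43 members measured in both. Red points are core, blue regulatory and grey neither; dotted lines mark 2-fold, and members past it on an axis are named. Of 17 core genes, 16 lie right of 0 in WT, while 7 of 17 lie above 0 in KO (13 and 7 with quantile normalization, 17 and 11 with normexp). Of all measured genes, 43.2% lie above 0 in WT and 39.4% in KO.

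The WT minus KO difference of these contrasts had a median of 0.46 over 43 members, against 0.03 for all genes; 11 members were at least 2-fold higher in WT (20.2% of all genes) and 2 at least 2-fold lower (16.5% of all genes). Array median scaling gave 17 and 0 (28.5% and 9.76% of all genes), and normexp 9 and 0 (14.3% and 7.67%). All 17 core genes were above 0, as were 51.3% of all genes, and the core median was 0.87. Quantile normalization left 14 of 17 core genes and normexp background correction 16 of 17 above 0. The regulatory median was -0.12, with 9 of 21 genes above 0. Array median scaling turned it to 0.20, with 16 of 21 above 0, so its sign is not settled. Largest were Psmd5 (1.85), Psmb1 (1.76), Psmb9 (1.72) and Psma5 (1.59), and lowest Psmc4 (-1.12) and Psmd9 (-1.06), whose second probe gave 1.65, so that the direction for Psmd9 depends on the probe. The interaction of genotype and antibody was not tested, because it has 1 array per cell of the design.

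Set against input, the classes looked different. AGO2-RIP minus input had a median of -1.25 log2 over 46 members in WT and -1.32 over 46 in KO, where all genes had -0.24 in both. At least 2-fold lower than input were 28 members in WT, with 26.4% of all genes that low, and 29 in KO, again with 26.4% of all genes. Core and regulatory medians were -1.19 and -1.25 in WT, a gap of 0.06, and -1.60 and -1.20 in KO. IgG-RIP minus input had medians of -1.77 in WT and -1.31 in KO over 44 members, beside -0.45 and -0.26 for all genes. There 33 members in WT (37.0% of all genes) and 29 in KO (28.8% of all genes) were at least 2-fold lower. In WT IgG-RIP, core genes had a median of -2.05 and regulatory genes of -1.09, and 16 of 17 core genes against 11 of 21 regulatory genes passed 2-fold; in KO IgG-RIP the medians were -1.51 and -0.98. The core minus regulatory gap of WT AGO2-RIP over IgG-RIP thus came with a gap of -0.96 on the WT IgG-RIP array and of 0.06 on the WT AGO2-RIP array, both against the same input array.

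**Figure D4:**
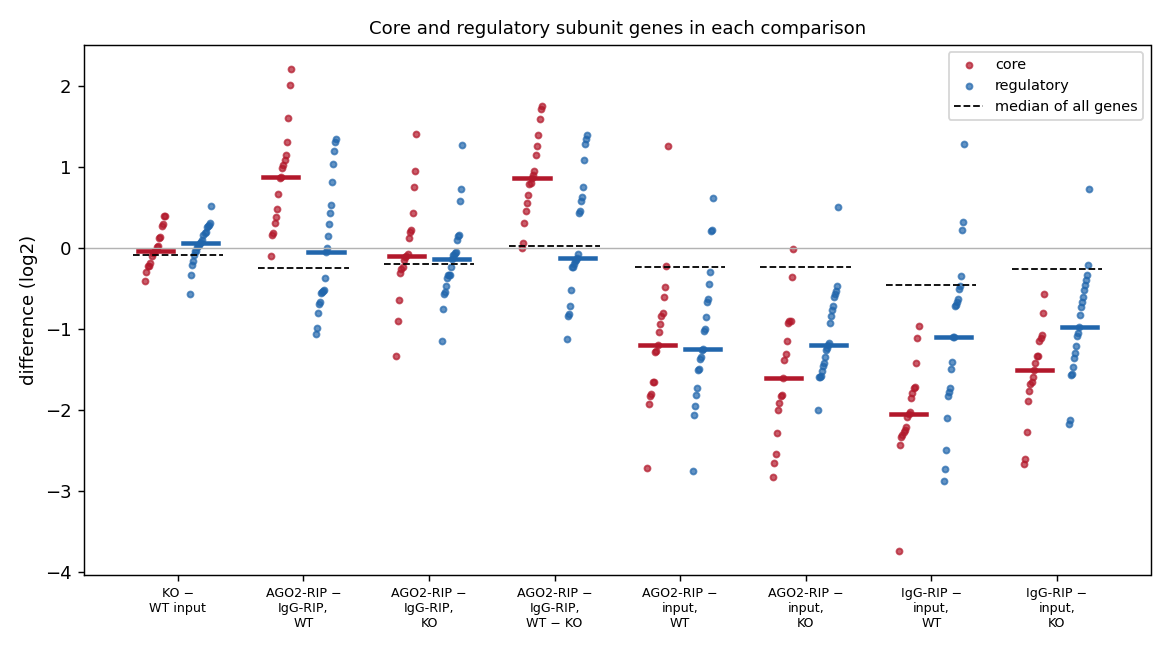
Difference (log2, y axis) of each measured core (red, 17 genes) and regulatory (blue, 21 genes) subunit gene in the 8 comparisons (x axis). Coloured bars are class medians and dashed lines the median of all genes; the core bar is 0.92 above the regulatory bar in WT AGO2-RIP over IgG-RIP and 0.96 below it in WT IgG-RIP over input.

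On all 6 arrays, 38 of the 43 members above background had both inputs above all 4 precipitates, which held for 35.4% of 12385 genes. The exceptions were Psmb2, Psmc1, Psmc2, Psme3 and Psme4. With quantile normalization 26 of the 43 members and 25.7% of those genes did so. Psmc2, an ATPase, had levels of 4.11, 4.73 and 4.43 in the WT input, AGO2-RIP and IgG-RIP and of 4.03, 3.49 and 3.83 in KO; both WT precipitates were above the input and both KO precipitates below it, and a second probe of this gene, which shares 50 of its positions with the first, gave these directions too. Psmb8 was among the members farthest below input in KO AGO2-RIP (-2.83), and Psmd9 (-3.18), Psmd14 (-2.75) and Psmd10 (-2.75) in WT AGO2-RIP.

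**Figure D5:**
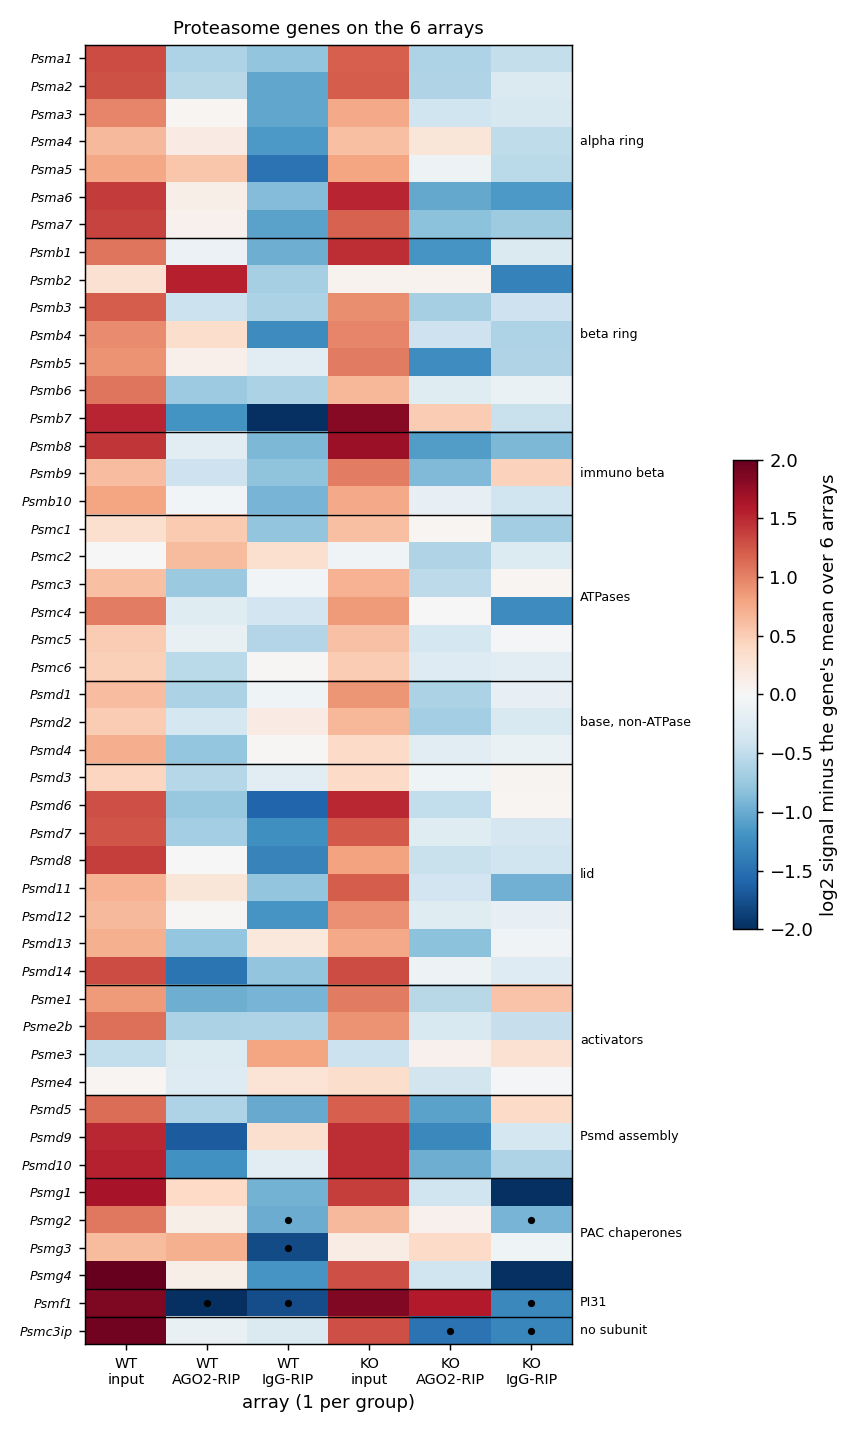
Log2 signal of the 47 members above background on at least 1 array (rows, by role), minus each gene's mean over the 6 arrays (colour, scale ends at 2 log2 units), on each array (columns). Black dots mark arrays on which the gene was not well above background. The input columns are red for nearly all genes. The WT IgG-RIP column is blue in the core, in part of the lid and in the PAC chaperones.

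Taking both genotypes as a pair, limma (fraction plus genotype, 2 residual degrees of freedom, 18888 genes, Benjamini-Hochberg adjusted p below 0.05) compared the fractions. For AGO2-RIP against IgG-RIP it called 0 of 47 members and 0 genes in all, 0.0% in either direction. At an unadjusted p below 0.05, 5 members were higher and 1 lower, and 12.2% of all genes were higher and 6.64% lower. The lowest adjusted p among members was 0.15 for both Psmb2 (1.82 ± 0.46 log2, SE) and Psmg4 (1.503 ± 0.39), each higher in both genotypes. Among genes above background on all 6 arrays, 1 of 43 members, Psmb2, was called higher, where 4.34% of 12385 genes were.

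Against input, 6 members fell in AGO2-RIP (5.77% of all genes were called lower): Psmd9 by 2.97 ± 0.44 log2 (SE), Psmd10 by 2.60 ± 0.39, Psmb8 by 2.24 ± 0.46, Psmg4 by 1.94 ± 0.39, Psma1 by 1.87 ± 0.38, and Psmc3ip, with limma adjusted p from 0.037 to 0.046. Psmc3ip was not well above background on KO AGO2-RIP, so that only a bound stands there: it was at least 5.73-fold lower than input in KO, and 4.25-fold lower in WT. The second Psmd9 probe lay closer to input, at -0.39 in WT and -1.86 in KO. A second Psmd10 probe, dim on WT AGO2-RIP, gave -0.48 in KO against -2.45 for the probe used, so the size for this gene depends on the probe. The count of members called was 0 under quantile normalization, as for all genes, and 24 among genes above background on all 6 arrays, where 20.9% of all genes were called lower. In IgG-RIP 22 members fell (15.8% of all genes were called lower), of which 10 of 17 core, 7 of 21 regulatory and 5 of 9 other genes, and the count ran from 5 (6.72% of all genes) to 34 (20.6% of all genes) over the alternatives. Of the 22, Psmc3ip and Psmg2 were dim on at least 1 IgG-RIP array. Psmg4 fell by 3.44 ± 0.39 log2 (limma adjusted p = 0.020) and Psmb7 by 2.998 ± 0.52 (0.022). Both contrasts use the same input arrays. The labels do not say whether the arrays come from separate cultures or animals. The genotype term takes out a constant difference between the genotypes. The error behind these limma p-values is thus how far the differences between fractions varied between WT and KO, moderated over all genes. A difference between fractions that depends on genotype counts as error in this fit.

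Other parts of the ubiquitin-proteasome system gave a background for these values. Of 23 further proteasome components and partners on the array, 19 were measured in AGO2-RIP over IgG-RIP, with a median of -0.01 in WT and 0.14 in KO; 3 were at least 2-fold higher and 0 lower in WT (20.3% and 22.2% of all genes), and 2 higher and 1 lower in KO (10.5% and 9.92% of all genes). Nfe2l2, which encodes the transcription factor NRF2, had levels of 2.36, 5.26 and 1.22 in the WT input, AGO2-RIP and IgG-RIP and of 2.60, 3.68 and 1.77 in KO. Its AGO2-RIP level was the highest in each genotype, 4.04 log2 above IgG-RIP in WT and 1.90 in KO, beyond every measured proteasome gene. Nfe2l1 (NRF1, which drives proteasome genes when the proteasome is inhibited) had 0.83 in WT and 1.83 in KO, and the proteasome deubiquitinase Usp14 had 1.66 and 0.12. Lowest were Vcp in WT (-0.98) and its cofactor Ufd1 in KO (-2.11). Sem1, the smallest lid subunit, and Pomp, which matures the core, were lower in AGO2-RIP than in input, by differences of -2.77 and -1.77 in WT.

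Of 6 genes for ubiquitin and its activating enzymes, all were measured, with a median of 0.67 in WT and 0.19 in KO. Uba1, the main activating enzyme, was 2.08 above IgG-RIP in WT and 0.59 in KO. Of 14 genes for MHC class I presentation, 10 were measured in WT, with a median of 0.66, and 12 in KO, with a median of 0.18. Irf1, which encodes an interferon-response factor that acts on immunoproteasome genes, was 3.48 and 3.39 above IgG-RIP, and B2m, the MHC class I light chain, 2.07 and 0.36. Tap1, the neighbour of Psmb9 in the MHC region, was above background on 1 array. In the inputs 0 measured genes of these 3 lists differed by 2-fold.

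Promoter windows of 250 bases before the start were taken from RefSeq (GRCm38.p6) for 41 of the 49 members. The antioxidant response element, through which NRF1 and NRF2 act, was searched as TGACNNNGC, and the CCAAT box as CCAAT, both on either strand. The first was in 5 of 41 windows (12.2%; 11.5% of 27025 genes) and the second in 15 of 41 (36.6%; 37.5% of all genes). By class, the CCAAT box was in 8 of 15 core windows and 5 of 18 regulatory windows. The windows of Psmb5 and Psmb6, which encode catalytic subunits, are shown because they hold the antioxidant response element, printed in capitals; neither holds a CCAAT box, and the motifs do not overlap.
Psmb5 (chr14:54617996-54618245, minus strand): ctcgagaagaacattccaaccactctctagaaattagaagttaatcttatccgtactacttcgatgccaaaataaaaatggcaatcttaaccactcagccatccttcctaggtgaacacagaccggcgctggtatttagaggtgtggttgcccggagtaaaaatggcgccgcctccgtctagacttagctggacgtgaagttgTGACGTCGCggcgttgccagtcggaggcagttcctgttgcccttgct
Psmb6 (chr11:70525107-70525356, plus strand): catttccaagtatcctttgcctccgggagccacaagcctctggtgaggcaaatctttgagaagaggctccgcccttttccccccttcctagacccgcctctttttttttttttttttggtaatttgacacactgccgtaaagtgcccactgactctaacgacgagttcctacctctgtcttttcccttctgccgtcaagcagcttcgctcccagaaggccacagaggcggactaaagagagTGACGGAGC
A match is a description of the sequence. The other windows with the element were those of Psmc6, Psmd9 and Psmd12, and the AGO2-RIP minus IgG-RIP differences of these 5 genes in WT ran from -1.99 (Psmd9) to 1.20 (Psmd12).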

How the data were processed

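Each of the 6 RNAs was turned into cDNA, pre-amplified, digested and Cy3-labelled, per the labels' protocols, so every value is relative to equal cDNA mass and hides how much RNA was precipitated. The submitters' processing notes name Agilent Feature Extraction 10.7.3.1, and the deposited probe positions are on mm9. Per the file headers, the intensity used is background-subtracted and not normalized between arrays, and mean and background intensities served 1 alternative. All arrays shared 1 slide and 1 scan, with KO on row 1 and WT on row 2.

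Log2 values were centred on each array's 75th percentile over 59305 spots, spots of a probe were averaged, and 54 probes with outlier spots were left out. A gene is its probe with the highest mean signal, and names were updated through RefSeq. A gene counted as measured in a comparison if all of that comparison's arrays had it well above background. The 2-fold threshold is a size, not a test. Tests used limma 3.58.1 (R 4.3.3) for genes that passed background on 2 or more arrays, with other steps in Python 3.11.15 (pandas 2.3.3, matplotlib 3.10.9). On simulated data (AGO2-RIP against IgG-RIP, 18888 genes, 200 of them changed) limma recovered 14% of 4-fold and 60% of 8-fold changes. It also called 16 unchanged genes, a larger share of its calls than the adjusted p threshold allows. The limma calls reported here can thus include more false ones than their adjusted p-values imply. Any member could be named; of other lists, the 2 highest and 2 lowest per comparison, and label checks. Pomp and Tap1 fall outside this rule and were added with their values known. The members and lists were chosen with earlier results of these data known. The number of arrays limits the precision.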

Additional observations from a re-analysis of the deposited data

Results flagged for a closer look

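Members with AGO2-RIP above IgG-RIP in WT but below it in KO, and a WT minus KO difference of 2-fold or more, were Psmd5 (1.85 log2), Psmb1 (1.76), Psmb9 (1.72), Psmd8 (1.40), Psmd6 (1.35), Psmd12 (1.28), Psma7 (1.27) and Psma3 (1.16). These were 8 of 43 members, or 18.6%, where 10.0% of 14054 genes met the same conditions. Each rests on 1 array per group, and the difference between genotypes was not tested. For Psma3, Psma7, Psmd8 and Psmd12 the KO value was between -0.11 and -0.06, within the spot noise of 0.29, so that these are differences between a clear WT value and a KO value near 0. Psmb1, Psmb9, Psmd5 and Psmd6 had KO values of -0.90, -1.33, -1.45 and -0.54. Psmd12 has a second probe, which gave 0.52 in WT and -0.73 in KO.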

How the results depend on the processing

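With 1 array per group no array could be left out. The labels give no replicate numbers, so no replicate block was fitted; limma's genotype term pairs the arrays of a genotype, and the fit without it is among the alternatives below. Of 204 alternative values of the main results, 173 stayed within spot noise or, for counts, within 1.5 times. The spot noise used is that of a single probe and not of a median. Array median scaling shifts a whole array by a constant, so it could not change a gap between medians, and those values were fixed in advance. No gap beyond spot noise changed direction, and for smaller gaps a change of direction was not counted. The cause of the values outside these limits was not tested. Core minus regulatory became 1.25 in WT AGO2-RIP over IgG-RIP and -0.12 in KO AGO2-RIP over input with the median of a gene's probes. The members' median minus that of all genes, over input, was with quantile normalization -0.57 for KO AGO2-RIP, -0.79 for WT IgG-RIP and -0.61 for KO IgG-RIP, and without a filter on dim genes -0.69 for WT AGO2-RIP, -1.68 for WT IgG-RIP and -1.60 for KO IgG-RIP. Counts of members 2-fold lower in the KO input were 0 with median scaling, quantile normalization and normexp, and 2 at 1.5-fold. In WT AGO2-RIP over IgG-RIP, 8 were higher with quantile normalization, and 1 (median scaling), 5 (quantile), 1 (normexp), 4 (median of probes) and 7 (1.5-fold) were lower. In KO, 7 were higher and 7 lower at 1.5-fold, and 1 lower with normexp. With limma, 1 member (Psmb2) was called higher over IgG-RIP on genes above background on all 6 arrays. Members called lower in AGO2-RIP than input were 18 (median scaling; 10.5% of all genes), 0 (quantile; 0.0%), 23 (normexp; 12.9%), 3 (no filter; 1.68%), 24 (all 6 arrays; 20.9%) and 16 (no genotype term; 9.75%). In IgG-RIP they were 5 (quantile; 6.72%) and 34 (normexp; 20.6%, with 1, Psme3, called higher). For single genes with several probes, the median of probes moved 51 of 96 values and reversed 1: Psmd9, WT minus KO, became 0.30. Arrays give signal over background and no read depth, and a difference with a dim array on 1 side is only a bound, while limma took such signals as measured.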
